A study of Mus musculus with 21 samples.

Results

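Transcript levels of 9 genes of meiotic strand exchange were measured by RNA-seq in germ cells from testes of C57BL/6J (B6) mice at 12 days post-partum (dpp). The genes were Dmc1, Rad51c, Psmc3ip, Mnd1, Brca1, Brca2, Palb2, Rpa1 and Rpa2, chosen by name for their function, and each was found as 1 row among the 37620 genes of the table. The RNA came from cells enriched by collagenase and trypsin digestion and labelled as spermatocytes. It was read in 12 libraries, 3 for each of the sample numbers 186wt, 343wt, 444wt and 456wt. The labels give the 4 sample numbers the same strain, age and cell type and name no treatment or mutation, so the sample number was the only factor that could be compared. The study's methods speak of 4 replicates, which fits the 4 sample numbers as replicates of 1 condition. Whether a replicate is 1 mouse or a pool, and what set its 3 libraries apart, is not given in the sources used here. The ChIP-seq, Affinity-seq and input samples were not analysed here.

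During meiosis the cell breaks its own DNA and repairs each break from the homologous chromosome. The broken ends are trimmed to single strands, which replication protein A (RPA) coats and protects. BRCA1, PALB2 and BRCA2 then exchange RPA for recombinases, of which DMC1 works in meiosis only, and the filament searches for and invades the homologous DNA with the help of the HOP2-MND1 pair. HOP2 is the product of Psmc3ip. In the mouse testis these steps take place in leptotene and zygotene spermatocytes, the cells in which the first wave of meiosis is found at this age.

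The promoters of Dmc1, Brca2, Rpa1 and Rpa2 are shown because these genes mark the opposite ends of the differences described further on. The sequences are from RefSeq (GRCm38.p6), and each had a single exact match in NCBI build 37, whose positions are given. Each line runs 5′ to 3′ along the gene and holds 280 bases, from 250 bases before the start site to 29 bases after it. Capitals mark every match to a searched motif on either strand.
Dmc1 promoter, chr15:79435510-79435789, minus strand: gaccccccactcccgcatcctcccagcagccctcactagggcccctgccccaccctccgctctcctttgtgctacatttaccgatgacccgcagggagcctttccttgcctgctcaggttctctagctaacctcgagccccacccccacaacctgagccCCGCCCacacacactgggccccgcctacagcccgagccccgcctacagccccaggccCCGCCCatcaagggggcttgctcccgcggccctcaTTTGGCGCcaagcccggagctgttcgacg
Brca2 promoter, chr5:151324946-151325225, plus strand: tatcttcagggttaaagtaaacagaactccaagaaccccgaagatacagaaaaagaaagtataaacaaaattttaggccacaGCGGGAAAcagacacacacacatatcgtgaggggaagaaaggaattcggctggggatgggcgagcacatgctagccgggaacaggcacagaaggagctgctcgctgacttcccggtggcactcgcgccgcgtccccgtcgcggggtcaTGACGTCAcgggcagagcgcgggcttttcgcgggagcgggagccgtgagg
Rpa1 promoter, chr11:75161856-75162135, minus strand: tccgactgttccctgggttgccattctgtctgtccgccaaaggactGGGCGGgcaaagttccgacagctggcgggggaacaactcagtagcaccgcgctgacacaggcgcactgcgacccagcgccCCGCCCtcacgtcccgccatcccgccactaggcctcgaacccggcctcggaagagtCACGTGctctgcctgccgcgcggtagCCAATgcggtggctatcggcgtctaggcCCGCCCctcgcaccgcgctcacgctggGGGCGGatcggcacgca
Rpa2 promoter, chr4:132324025-132324304, plus strand: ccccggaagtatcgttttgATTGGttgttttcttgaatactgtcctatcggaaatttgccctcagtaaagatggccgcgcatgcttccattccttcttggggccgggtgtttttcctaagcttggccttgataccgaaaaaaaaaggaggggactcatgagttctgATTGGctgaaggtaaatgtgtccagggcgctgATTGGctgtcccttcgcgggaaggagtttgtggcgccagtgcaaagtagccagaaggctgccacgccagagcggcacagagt

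Short words of sequence were searched in the windows of 300 bases around the start sites, on both strands. Dmc1 held the E2F motif TTTGGCGC, which begins 1 base after the start site, and 0.519% of the 32544 RefSeq promoters hold these letters. Brca2 held the other E2F motif, TTTCCCGC (written as GCGGGAAA on the strand shown), 168 bases before its start, and the cyclic AMP response element TGACGTCA 20 bases before it. These words occur in 1.08% and 1.80% of all promoters. Rad51c, which has a pair of windows because RefSeq lists different start sites, was the only other of the 9 genes with either word, and its E2F match overlaps a GC box (GGGCGG). Rpa1 held the E-box CACGTG, found in 7.17% of all promoters, and 4 GC boxes, and Rpa2 held 3 copies of the CCAAT box on the opposite strand. A CCAAT box was present in 5 of the 9 genes (37.4% of all promoters) and a GC box in 5 (35.9%). The nuclear receptor word AGGTCA was found in Psmc3ip (16.2% of all promoters) and the MYB word CAACTG in Rpa1 (13.6%), downstream of the part printed. The MYB word CAACGG (5.13%) and the STRA8 word CNCCTCAG (7.99%) were in none of the windows.

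Each library held an estimated 12.92 to 18.005 M (mega) fragments, found from the steps between low values. Levels are in FPKM, the fragments of a gene scaled to its transcript length and to the mapped total of the library. All 11 early meiotic markers, genes of the synaptonemal complex, the meiotic cohesin and the HORMA-domain proteins of the chromosome axis, were expressed, with means of 10.003 FPKM (Hormad2) to 92.9 FPKM (Stag3). Round spermatid markers stayed low, with sums of 0.643 to 2.48 FPKM over 5 genes and 2 of the 5 below 0.1 FPKM. The preparations were not spermatocytes alone. The 9 Sertoli cell markers summed to 4397 FPKM in 186wt, 4564 in 343wt, 2549 in 444wt and 2712 in 456wt, and the 6 Leydig cell markers to 56.5, 110, 16.1 and 60.9 FPKM. Macrophage markers were highest in 343wt and lowest in 444wt (25.5 and 6.04 FPKM over 5 genes), and peritubular myoid markers ranged from 253 FPKM in 343wt to 1112 in 456wt. The median gene differed between sample numbers by up to 0.14 on the log2 scale.

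The 9 genes lay at very different levels. Rpa2 and Rpa1, subunits of RPA that every dividing cell uses, were the highest at 72.9 ± 12.3 FPKM and 54.9 ± 8.35 FPKM (SD, n = 4 sample numbers, 3 libraries averaged in each). Next came the recombinase gene Dmc1 at 20.1 ± 7.25 FPKM and Brca1 at 17.6 ± 3.01 FPKM, followed by Rad51c (15.6 ± 3.70), Psmc3ip (14.9 ± 2.86) and Brca2 (14.5 ± 3.48). Palb2 was at 9.95 ± 1.80 FPKM. The lowest was Mnd1, at 6.55 ± 1.29 FPKM, although its protein works in a pair with that of Psmc3ip. All 9 were above 53.6% of the 20795 genes whose mean reached 0.1 FPKM, and Rpa2 was above 94.6% of them.

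Parts of this order held in every sample number. Rpa2 was above Rpa1, Rpa1 above Dmc1, Brca1 above Rad51c, Brca2 above Palb2 and Palb2 above Mnd1 in 4 of 4. Dmc1 exceeded Brca1 in 3 of 4, and the neighbours Rad51c and Psmc3ip, and Psmc3ip and Brca2, each kept their order in only 2 of 4, so these were not apart. The order is a description, since 4 sample numbers cannot give a p under 0.05 in a paired exact test.

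**Figure D1:**
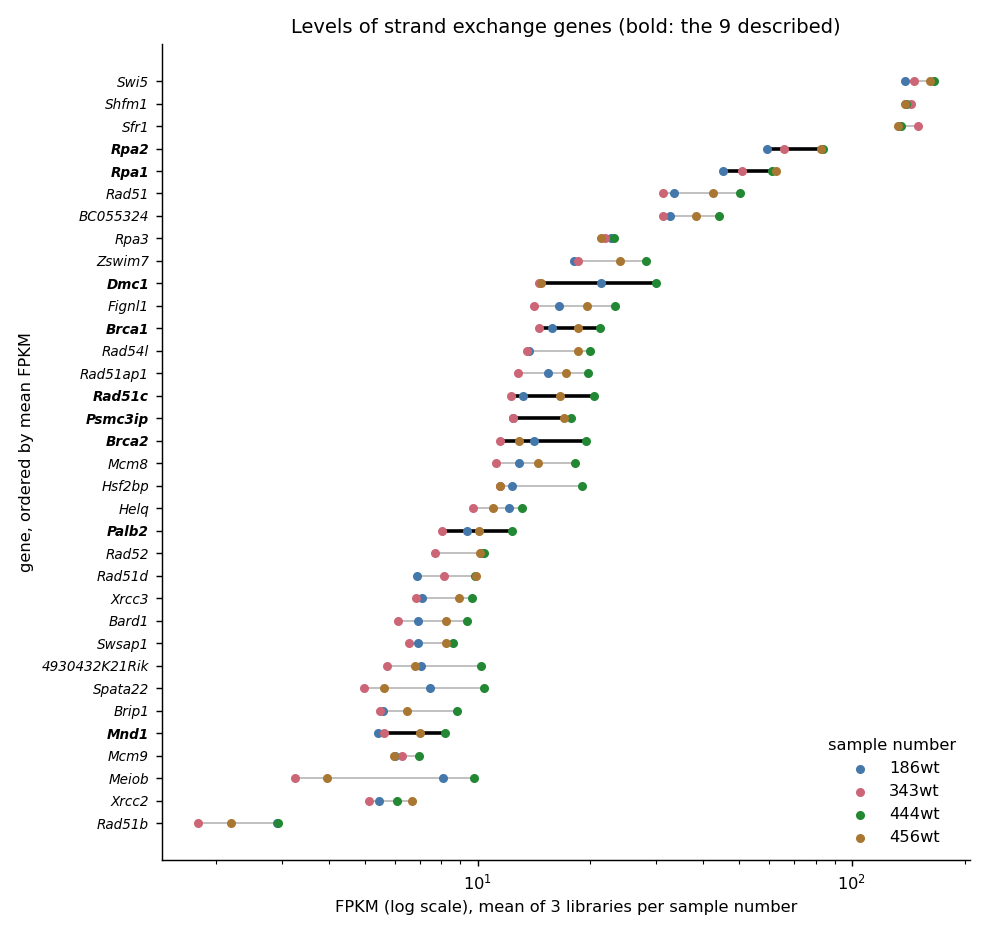
Mean FPKM of the 9 genes (bold) and 25 other strand exchange genes on a log scale, with a point for each sample number (mean of 3 libraries) and a line from the lowest to the highest. Rpa2 and Rpa1 lie near the top and Mnd1 near the bottom, and the points of Dmc1 spread from 14.6 to 29.9 FPKM.

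Every one of the 9 genes differed between the sample numbers beyond the spread of their libraries (limma F-test on log2(FPKM + 0.1), adjusted p from 1.86e-08 for Rpa2 to 0.00318 for Palb2), against 58.2% of all genes tested. With so many genes called, the count of 9 of 9 is not particular to these genes. Nor were their differences large: the log2 distance from the lowest to the highest sample number ran from 0.47 for Rpa1 to 1.04 for Dmc1, with a median of 0.58 against 0.55 over all genes. What they shared was direction. In 444wt 8 of the 9 had their highest level, where 36.3% of all genes had theirs, and in 343wt 6 of the 9 had their lowest, as did 34.2% of all genes. The other 3, Mnd1, Rpa1 and Rpa2, were lowest in 186wt. These p-values measure the spread between the libraries of a number, which may be technical. For Mnd1, with a single transcript of 874 bp and an estimated 52.7 to 109 fragments per library, the libraries of a number varied by 1.81 to 7.02% (coefficient of variation), less than the 10.1 to 12.8% of counting error. That counting error rests on the estimated fragments, and why the spread fell below it was not tested. In bulk RNA, fewer cells of a type and less RNA per cell cannot be told apart.

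**Figure D2:**
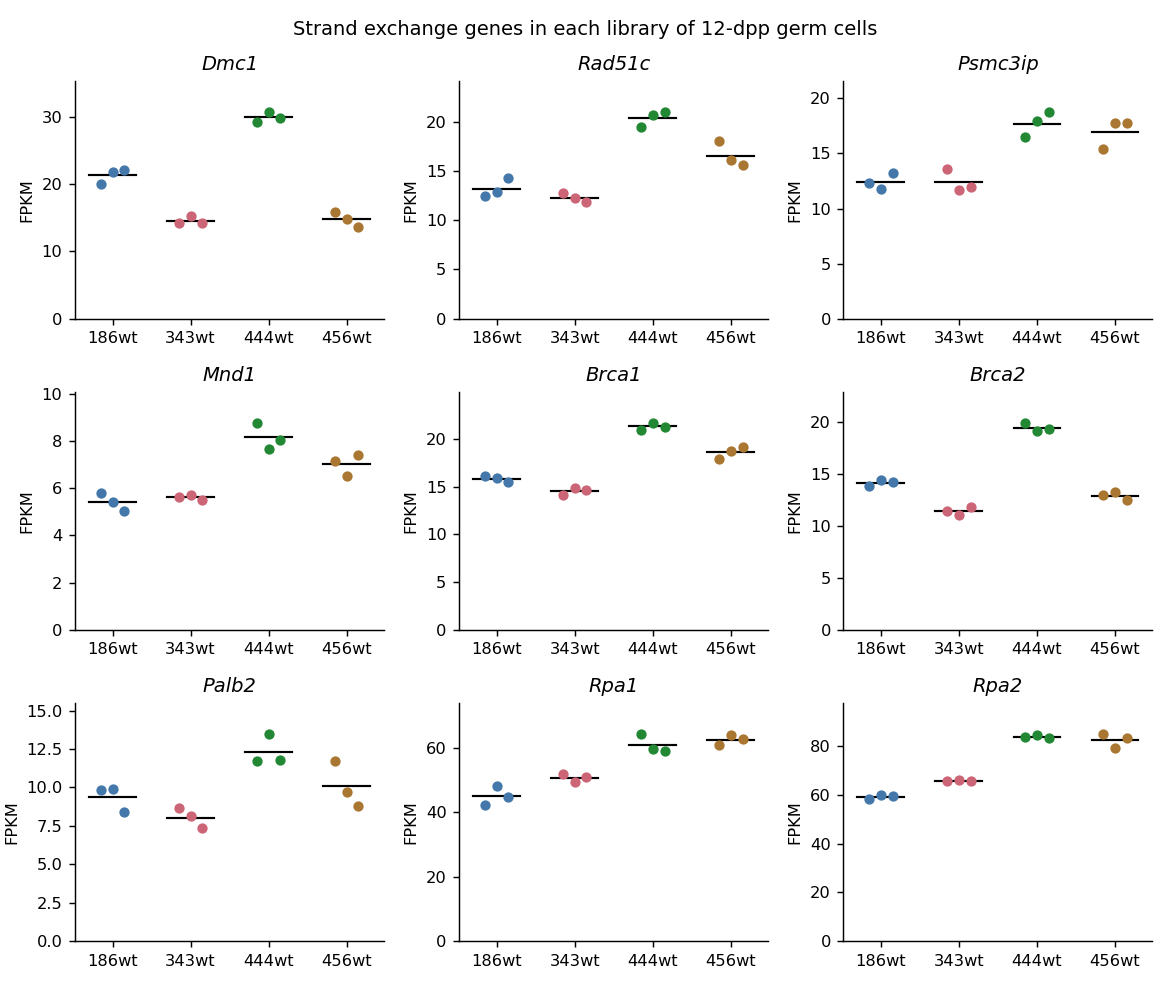
FPKM of each of the 9 genes in the 12 libraries, by sample number, with a point for each library and a bar at the mean of 3 libraries. The libraries of 444wt lie above those of 186wt and 343wt for all 9 genes, whereas 456wt lies near 343wt for Dmc1 (14.7 and 14.6 FPKM) and near 444wt for Rpa2 (82.6 and 83.9 FPKM).

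Dmc1 (ENSMUSG00000022429, chr15:79391930-79435529, minus strand), the meiosis-specific recombinase, differed the most. Its libraries were at 20.07, 21.84 and 22.03 FPKM in 186wt, 14.20, 15.24 and 14.24 in 343wt, 29.25, 30.70 and 29.86 in 444wt, and 15.80, 14.76 and 13.68 in 456wt. The libraries of 444wt and 186wt stood apart from each other and from the rest, and those of 343wt and 456wt overlapped. 444wt exceeded 343wt 2.06-fold (log2 difference 1.04 ± 0.06 SE, limma adjusted p = 4.31e-08), and 186wt exceeded 343wt by 0.55 ± 0.06 (adjusted p = 4.26e-05). Between 456wt and 343wt the log2 difference was 0.02, with a 95% interval of -0.11 to 0.14.

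Rad51c (ENSMUSG00000007646, chr11:87190147-87218456, minus strand), a recombinase paralog that helps to build and stabilise the filament, had another order. It was at 12.46, 12.87 and 14.33 FPKM in 186wt, 12.73, 12.25 and 11.84 in 343wt, 19.52, 20.75 and 21.01 in 444wt, and 18.05, 16.10 and 15.61 in 456wt. Here 456wt lay between 444wt and the other numbers with no overlap, while 186wt and 343wt overlapped. 444wt exceeded 343wt 1.66-fold (log2 difference 0.73 ± 0.07, adjusted p = 2.81e-06), and 456wt exceeded 186wt by 0.32 ± 0.07 (adjusted p = 0.00181).

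Psmc3ip (ENSMUSG00000019303, chr11:100953137-100956750, minus strand) and Mnd1 (ENSMUSG00000033752, chr3:83891856-83959708, minus strand) encode partners that act after the filament has formed. Psmc3ip was at 12.36, 11.73 and 13.19 FPKM in 186wt, 13.57, 11.70 and 11.97 in 343wt, 16.46, 17.93 and 18.76 in 444wt, and 15.44, 17.73 and 17.73 in 456wt. Mnd1 was at 5.79, 5.42 and 5.03 FPKM in 186wt, 5.63, 5.70 and 5.5 in 343wt, 8.76, 7.67 and 8.06 in 444wt, and 7.14, 6.52 and 7.43 in 456wt. Both genes were low in 186wt and 343wt and high in 444wt and 456wt, and in neither did the low pair overlap the high pair. For Psmc3ip 444wt exceeded 343wt 1.43-fold (0.51 ± 0.08, adjusted p = 0.00019), and for Mnd1 444wt exceeded 186wt 1.51-fold (0.58 ± 0.07, adjusted p = 4.97e-05). The excess of Mnd1 in 444wt over 456wt was just short of a call (0.21 ± 0.07, adjusted p = 0.0502), and it passed without any of 4 libraries (down to 0.0428). The 3′ part of Psmc3ip overlaps Mlx on the opposite strand, and without a stated strand setting their reads cannot be told apart there.

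Brca1, Palb2 and Brca2 encode the proteins that bring the recombinase to RPA-coated DNA, with PALB2 as the link between the other two. Brca1 (ENSMUSG00000017146, chr11:101350078-101413269, minus strand) was at 16.09, 15.89 and 15.44 FPKM in 186wt, 14.14, 14.85 and 14.65 in 343wt, 20.97, 21.64 and 21.27 in 444wt, and 17.93, 18.68 and 19.14 in 456wt. No sample number overlapped another. The distance from 343wt to 444wt was 1.46-fold (0.55 ± 0.04, adjusted p = 2.10e-07), and that from 343wt to 186wt was small (0.12 ± 0.04, adjusted p = 0.0378) and was lost on leaving out any of 5 of the 12 libraries (adjusted p up to 0.125) or on scaling to the median gene (0.11).

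Brca2 (ENSMUSG00000041147, chr5:151325205-151372321, plus strand), which loads the recombinase, was at 13.81, 14.43 and 14.26 FPKM in 186wt, 11.43, 11.06 and 11.85 in 343wt, 19.88, 19.10 and 19.31 in 444wt, and 12.97, 13.24 and 12.46 in 456wt. As with Dmc1, 186wt came second and above 456wt, and no sample number overlapped the next. 444wt exceeded 343wt 1.70-fold (0.76 ± 0.04, adjusted p = 3.56e-08). With the median gene as scale its excess in 456wt over 343wt (0.17 ± 0.04, adjusted p = 0.00496) was lost (0.219). Its long transcript (10724 bp) gave an estimated 1949 to 3264 fragments per library, and its libraries varied by 2.08 to 3.45% within a number, against 1.80 to 2.22% from counting.

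Palb2 (ENSMUSG00000044702, chr7:129250776-129276460, minus strand) varied more within a number. It was at 9.83, 9.87 and 8.41 FPKM in 186wt, 8.66, 8.11 and 7.34 in 343wt, 11.74, 13.46 and 11.81 in 444wt, and 11.73, 9.72 and 8.77 in 456wt. Only 444wt stood apart, and by 0.01 FPKM from the nearest library of 456wt. 444wt exceeded 343wt 1.54-fold (0.61 ± 0.11, adjusted p = 0.000634). Palb2 was also the gene whose difference rested on 444wt: without that number its F-test had an adjusted p of 0.0985. Its excess in 456wt over 343wt (0.32 ± 0.11, adjusted p = 0.0365) was lost without any of 4 libraries (adjusted p up to 0.143) or with the median gene as scale (0.152), and its excess in 444wt over 186wt without either of 2 libraries (up to 0.0516).

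Rpa1 (ENSMUSG00000000751, chr11:75111668-75161826, minus strand) and Rpa2 (ENSMUSG00000028884, chr4:132324247-132334667, plus strand) encode the large and the middle subunit of RPA. Rpa1 was at 42.21, 48.38 and 44.95 FPKM in 186wt, 51.92, 49.39 and 50.94 in 343wt, 64.33, 59.78 and 59.27 in 444wt, and 60.91, 64.03 and 62.75 in 456wt. Rpa2 was at 58.24, 60 and 59.67 FPKM in 186wt, 65.88, 65.97 and 65.52 in 343wt, 83.59, 84.64 and 83.51 in 444wt, and 84.90, 79.45 and 83.43 in 456wt. Both were lowest in 186wt, next in 343wt and highest in 444wt and 456wt, which overlapped. From 186wt to 456wt Rpa1 differed 1.38-fold (0.47 ± 0.05, adjusted p = 9.43e-06), and from 186wt to 444wt Rpa2 differed 1.41-fold (0.50 ± 0.02, adjusted p = 2.17e-08). The excess of Rpa1 in 343wt over 186wt (0.17 ± 0.05, adjusted p = 0.0271) was lost without any of 4 libraries (adjusted p up to 0.0923).

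Set pair by pair, 43 of the 54 differences between sample numbers passed the test. Over all genes, the share called in a single pair and direction ran from 9.93% (343wt higher than 186wt) to 30.4% (444wt higher than 343wt). All 9 genes were higher in 444wt than in 186wt (26.1% of all genes were) and higher than in 343wt (30.4%), and 0 of the 9 were lower (16.3% and 17.5% of all genes). With the libraries scaled to the early meiotic markers, 32 of the 54 differences passed. On that scale 6 of the 9 genes lay lower in 444wt than in 343wt, 3 of them past the test (Rpa1, Rpa2 and Brca1). Dmc1 alone was still called higher. The scale sets these markers level and moves every gene of a library by the same amount, so it makes this shift itself. What lies behind the shared direction was not tested. The share of all genes in each pair was not taken on that scale. Without that scaling, 8 of the 9 exceeded 343wt in 456wt (27.6% of all genes), Dmc1 being the exception. In 444wt Dmc1, Rad51c, Brca1 and Brca2 also exceeded 456wt (13.1%), and 0 of the 9 did the reverse (15.1%). Dmc1 led in that pair at 1.02 ± 0.06 (adjusted p = 1.66e-07), while the intervals of Rpa1 (-0.07 to 0.14, as 456wt minus 444wt) and Rpa2 (-0.03 to 0.08, as 444wt minus 456wt) were narrow around 0. Dmc1, Brca1 and Brca2 were higher in 186wt than in 343wt (10.5%), and Rpa1 and Rpa2 the reverse (9.93%).

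The comparison of 186wt with 456wt divided the genes. Dmc1 was higher in 186wt by 0.53 ± 0.06 (adjusted p = 1.35e-05) and Brca2 by 0.14 ± 0.04 (adjusted p = 0.0178), where 15.5% of all genes were higher in 186wt. The call on Brca2 was lost without library 2 of 186wt (adjusted p = 0.0599) or library 3 of 456wt (0.0695). In the other direction 6 genes were higher in 456wt (25.9% of all genes), by 0.23 ± 0.04 for Brca1, 0.32 ± 0.07 for Rad51c, 0.37 ± 0.07 for Mnd1, 0.44 ± 0.08 for Psmc3ip, 0.47 ± 0.05 for Rpa1 and 0.48 ± 0.02 for Rpa2. Palb2 lay between them (0.10 higher in 456wt, 95% interval -0.14 to 0.34). Markers differed between the same samples: 7 of 11 early meiotic markers were higher in 186wt and 3 lower, and of 6 markers of dividing cells 1 was higher in 186wt and 5 were lower. Spermatogonia markers were lower in 186wt in 7 of 8 and higher in 0, pachytene markers lower in 4 of 7 and higher in 1, and Sertoli cell markers higher in 9 of 9. All 5 peritubular myoid and all 5 endothelial markers were lower in 186wt.

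**Figure D3:**
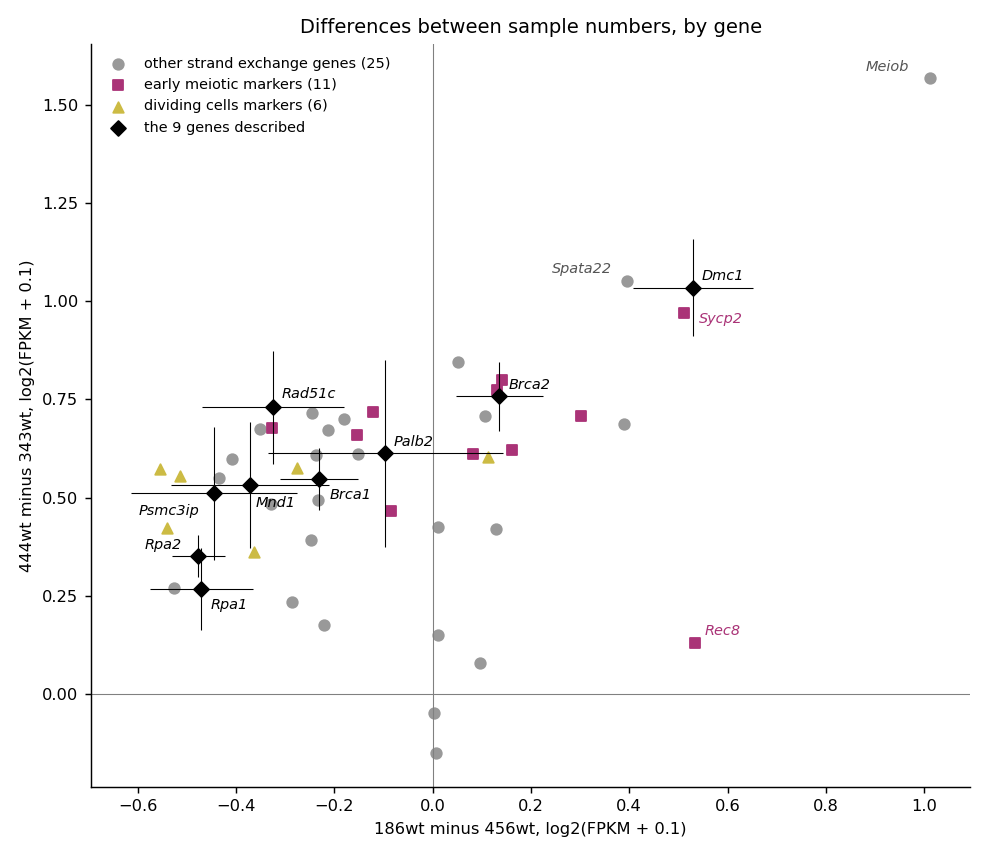
Difference between 186wt and 456wt (horizontal) and between 444wt and 343wt (vertical), on the log2(FPKM + 0.1) scale, for the 9 genes with 95% intervals and for 25 other strand exchange genes, 11 early meiotic markers and 6 markers of dividing cells. Dmc1 (0.53, 1.04) lies near Sycp2 and Spata22 to the right, and Rpa1 and Rpa2 lie to the left. Called to the right were 2 of the 9 genes, 7 of the 11 early meiotic markers and 1 of the 6 markers of dividing cells. Called to the left were 6 of the 9 genes, 3 of the 11 early meiotic markers and 5 of the 6 markers of dividing cells.

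Ratios between the genes do not depend on how a library was scaled, and 6 were compared over the sample numbers by exact two-sided permutation tests of the 12 libraries, adjusted over the 6. Psmc3ip to Mnd1, Rpa1 to Rpa2 and Brca2 to Palb2 did not differ beyond the spread of the libraries. Psmc3ip stood to Mnd1 as 2.30, 2.21, 2.17 and 2.41 in 186wt, 343wt, 444wt and 456wt (2.27 ± 0.107, SD, n = 4, exact adjusted p = 0.659). Rpa1 to Rpa2 was at 0.761, 0.771, 0.728 and 0.758 (0.754 ± 0.0186, SD, n = 4, exact adjusted p = 0.624), and Brca2 to Palb2 at 1.52, 1.43, 1.58 and 1.29 (1.45 ± 0.125, SD, n = 4, exact adjusted p = 0.305). A p of this size does not show that the ratios were equal. Their highest and lowest sample numbers differed 1.11-fold, 1.06-fold and 1.22-fold.

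The other 3 ratios differed, although none of the 3 calls held without the libraries numbered 2 (adjusted exact permutation p = 0.0571 for each). For Dmc1 to Rad51c the unadjusted exact permutation p there was 0.00952, the smallest that the 105 arrangements left can give. Its lost call thus reflects the smaller test and the adjustment. Without the libraries numbered 2, Brca1 to Brca2 and Dmc1 to Rpa1 were at an exact permutation p of 0.0190 and 0.0286 before adjustment, above the smallest possible. Dmc1 to Rad51c was at 1.61 in 186wt, 1.19 in 343wt, 1.47 in 444wt and 0.889 in 456wt, a 1.81-fold range, and its exact permutation p of 6.49e-05 (adjusted 0.00039) was the smallest that 12 libraries in 4 numbers can give. Rad51c thus exceeded Dmc1 in 3 of 3 libraries of 456wt and in none of the other 9. Dmc1 to Rpa1 was at 0.472, 0.287, 0.490 and 0.235, a 2.08-fold range (exact permutation test, adjusted p = 0.000779), with 186wt and 444wt high and 343wt and 456wt low. Brca1 to Brca2 was at 1.12, 1.27, 1.10 and 1.44, a 1.32-fold range (exact permutation test, adjusted p = 0.000909), and here 343wt and 456wt were high. This call was also lost without 343wt or 456wt (exact adjusted p = 0.05 in each case).

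**Figure D4:**
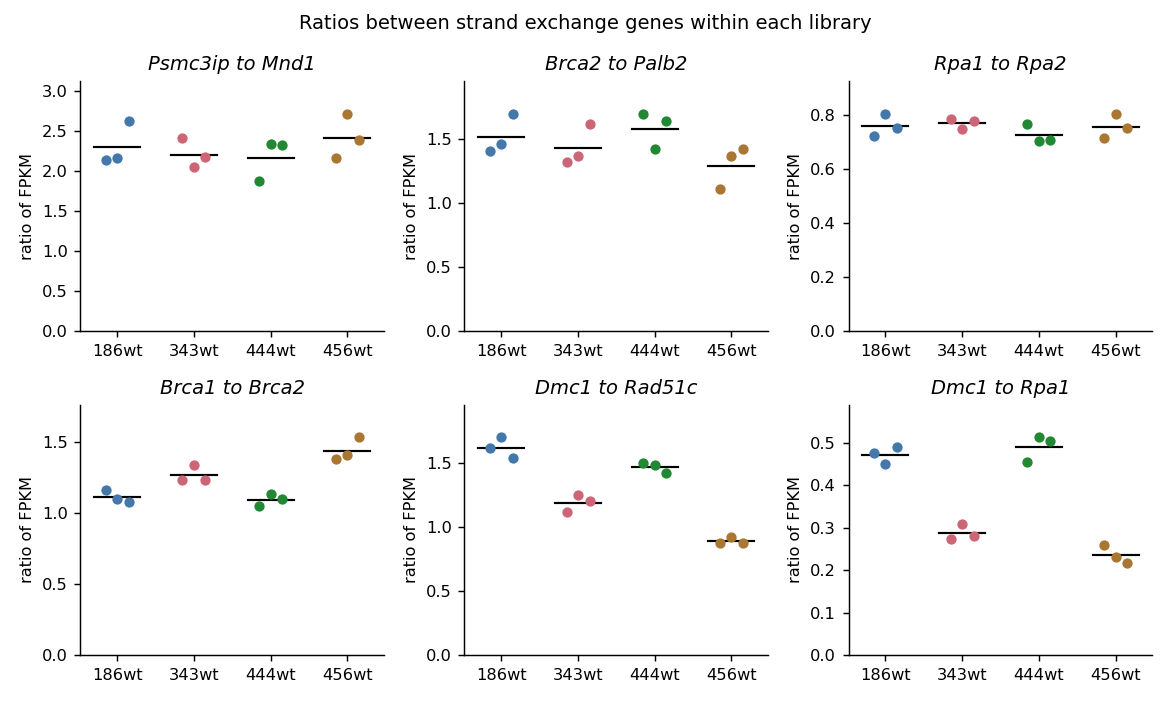
Ratio of FPKM between 6 pairs of the genes in each of the 12 libraries, by sample number, with a bar at the mean of 3 libraries and axes from 0. The ratios of Psmc3ip to Mnd1 and of Rpa1 to Rpa2 overlap across sample numbers, whereas Dmc1 to Rad51c falls to 0.889 in 456wt and reaches 1.61 in 186wt.

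Several marker lists moved with these differences and others did not. The median early meiotic marker deviated from its own mean by -0.03 in 186wt, -0.31 in 343wt, 0.33 in 444wt and -0.11 in 456wt (log2), with 10 of 11 highest in 444wt and 10 of 11 lowest in 343wt. The median marker of dividing cells deviated by -0.25, -0.24, 0.29 and 0.19, with 6 of 6 highest in 444wt. Spermatogonia markers deviated by -0.27, -0.12, 0.25 and 0.17, with 7 of 8 lowest in 186wt. Mnd1, Rpa1, Rpa2 and 4 of the 6 markers of dividing cells were lowest there too. Pachytene markers took another course (0.04, -0.10, -0.26 and 0.45), with 5 of 8 lowest in 444wt and 6 of 8 highest in 456wt. Sertoli cell markers went the other way (0.35, 0.37, -0.28 and -0.39), with 9 of 9 higher in both 186wt and 343wt than in 444wt or 456wt. Summed levels of the Sertoli and Leydig cell lists in each sample number are given above. When each gene was set against the median deviation of the dividing-cell markers, the range over sample numbers went from 0.51 to 0.03 for Psmc3ip, from 0.58 to 0.12 for Mnd1, from 0.50 to 0.18 for Rpa2 and from 0.73 to 0.21 for Rad51c, but only from 1.04 to 0.97 for Dmc1. For Brca1 it went from 0.55 to 0.21, for Rpa1 from 0.47 to 0.26, for Palb2 from 0.61 to 0.34 and for Brca2 from 0.76 to 0.57. Set against the early meiotic markers, it went from 0.76 to 0.15 for Brca2, from 0.61 to 0.18 for Palb2 and from 1.04 to 0.58 for Dmc1, and from 0.50 to 0.56 for Rpa2. For Rad51c it went from 0.73 to 0.40, for Brca1 from 0.55 to 0.31 and for Mnd1 from 0.58 to 0.45. For Psmc3ip it went from 0.51 to 0.52 and for Rpa1 from 0.47 to 0.55. With the libraries rescaled to the early meiotic markers, the F-test still called 7 of the 9 genes, against 67.5% of all genes on that scale. It no longer called Brca2 (adjusted p = 0.111) or Palb2 (0.459). The part of the somatic, spermatogonial and pachytene cells in the results was not tested.

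**Figure D5:**
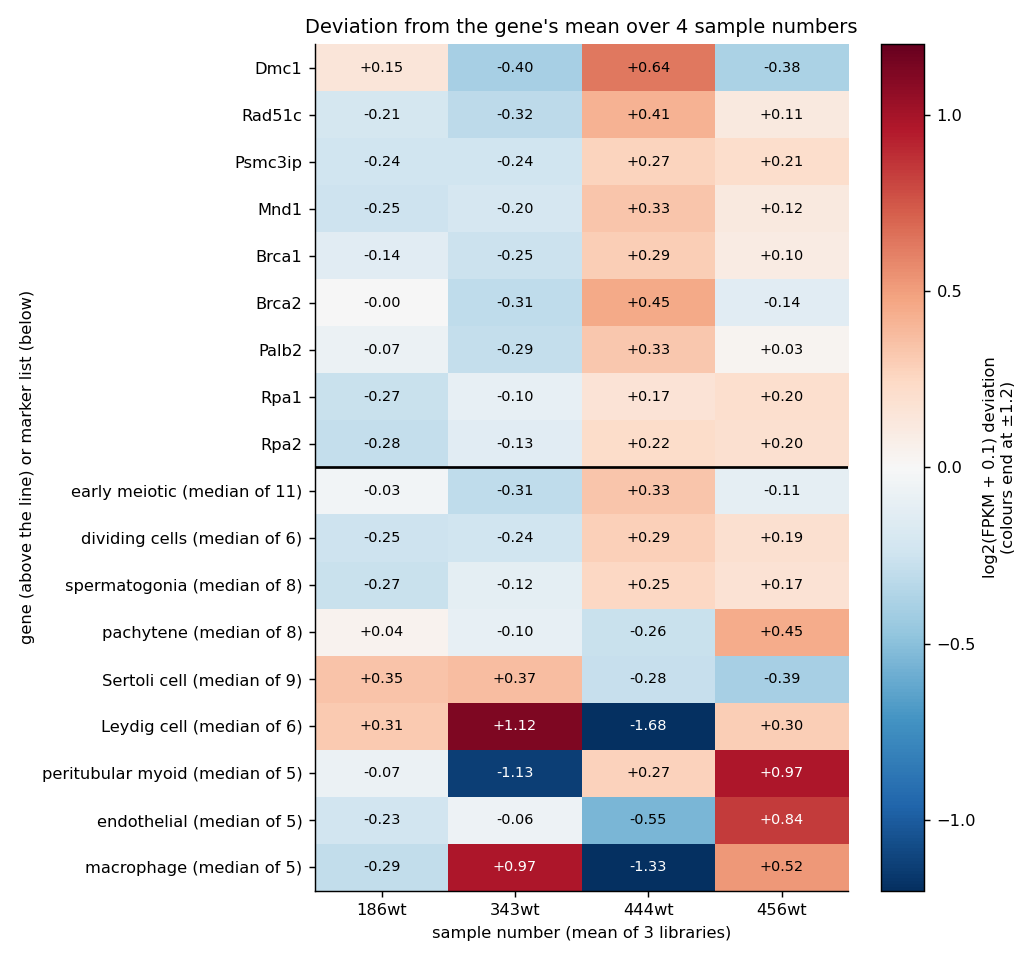
Deviation of the 9 genes (above the line) and of the median of 9 marker lists (below) from the gene's own mean over the 4 sample numbers, in log2(FPKM + 0.1), with colours ending at ±1.2. The 9 genes are positive in 444wt, where Leydig cell and macrophage markers are at -1.68 and -1.33, and the columns of 186wt and 456wt differ in sign for Dmc1 and for the Rpa genes in opposite ways.

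The same steps involve other genes, and of a list of 26, 25 had a single row in the table. None was below 0.1 FPKM. Between sample numbers 22 of the 25 differed by the F-test, with a median range of 0.55. The test called 58.2% of all genes, and 77.6% of those with a mean of at least 1 FPKM, as all 25 have. Of the 25, 21 were highest in 444wt and 18 lowest in 343wt. The 3 without a call were Rpa3, the small subunit of RPA (adjusted p = 0.497), Shfm1, a small protein bound to BRCA2 (0.25), and Helq, a helicase (0.245). In pairs, 20 of 25 were higher in 444wt than in 343wt (30.4% of all genes) and 1 was lower. In 186wt 3 of 25 were higher than in 456wt (15.5% of all genes) and 11 were lower (25.9%).

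Highest among them were Swi5, Shfm1 and Sfr1, at 153 ± 12.6, 140 ± 2.40 and 138 ± 8.03 FPKM (SD, n = 4), and SWI5 and SFR1 form a small complex that stimulates strand exchange. The lowest were Rad51b, a recombinase paralog, at 2.46 ± 0.559 FPKM, the paralog Xrcc2 at 5.84 ± 0.679 FPKM and Meiob at 6.26 ± 3.17 FPKM. Meiob also had the largest range. It encodes a meiosis-specific relative of RPA that works with SPATA22, and it was at 8.07 FPKM in 186wt, 3.24 in 343wt, 9.78 in 444wt and 3.95 in 456wt (log2 range 1.57, limma adjusted p = 7.71e-08). Spata22 was at 7.47, 4.98, 10.4 and 5.64 FPKM (log2 range 1.05, adjusted p = 2.17e-06). Next was 4930432K21Rik, known as Brme1, a partner of the BRCA2-binding protein HSF2BP, at 7.07, 5.73, 10.2 and 6.81 FPKM (0.85, adjusted p = 0.000932). Meiob and Spata22 had the order of Dmc1 with 444wt first and 186wt second, and were higher in 186wt than in 456wt by 1.01 ± 0.09 (adjusted p = 3.07e-06) and 0.40 ± 0.08 (adjusted p = 0.00197). The same order of means was seen in Rad51b, Rad52, Helq, Hsf2bp and 4930432K21Rik, but not clearly in all of them. Helq was not called by the F-test (adjusted p = 0.245). Rad52 was at 10.39, 10.23 and 10.16 FPKM in 444wt, 186wt and 456wt, and Hsf2bp at 11.48 FPKM in both 456wt and 343wt. The counterparts of Meiob and Spata22 in general RPA, Rpa1 and Rpa2, were lower in 186wt. Rpa3, also of general RPA, was not: its mean was 22.8 FPKM in 186wt and 21.3 in 456wt, and the F-test did not call it.

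The genes most like each of the 9 were sought among the 14348 genes whose mean reached 1 FPKM, by the root mean square difference of centred log2 values over the 12 libraries. Closest to Brca2 were Sycp3, an axial element of the synaptonemal complex (0.0444), the checkpoint kinase gene Atr (0.0637) and Abhd5 (0.0694), where the median gene was at 0.314. Closest to Psmc3ip were Rad54l, a translocase of homologous recombination (0.0644), Spocd1 (0.0679) and the centromeric histone gene Cenpa (0.0702). Brca1 was followed most closely by Hjurp, the chaperone of that histone (0.0315), Lztr1 and Hsp90aa1. For Dmc1 they were Inca1 (0.0841), AY036118 and Gm4969, and the median gene was at 0.456. Rad51c had Rbm44 (0.0673), Nphp4 and Piwil2, a gene of the piRNA pathway, and Mnd1 had Prtg (0.0453), Sik1 and Fut11. For Palb2 the closest were Trpc2 (0.0779), Ankle1 and Pot1b, for Rpa1 Rexo2 (0.0381), Tmsb10 and Mapk8ip1, and for Rpa2 Rpl10a-ps1 (0.0242), Tubb4b and Gpi1. All 12 libraries also share the makeup of the cell preparations, so nearness here describes these samples only.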

How the data were processed

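Paired reads of 100 bp had been mapped by the authors with BowTie 0.12.9 on transcripts of the mouse genome (NCBI build 37). They dropped reads with 2 or more mismatches, and deposited FPKM from RSEM 1.2.8, run with a fragment length of 280 bp (SD 50), as one column per library to 2 decimals. No counts were used and no strand setting is stated. RSEM shares reads among transcripts that fit equally well.

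Columns were assigned to sample numbers by name. The 3 libraries of a number were averaged for levels. Genes whose mean reached 0.1 FPKM entered limma 3.58.1 in R 4.3.3 (lmFit, eBayes with trend) on log2(FPKM + 0.1), with Benjamini-Hochberg adjustment over 20795 genes and a threshold of 0.05. Fold changes on this scale understate low genes. Ratios were tested in Python 3.11.15 with numpy 2.4.6, pandas 2.3.3 and scipy 1.17.1, and plots used matplotlib 3.10.9. Depth came from the FPKM steps of 200 genes with 1 transcript (first library 14.4 to 14.6 M, 95% interval) and covers counting error only. Scripts were tested on simulated data.

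The 9 genes, the lists and the tests were chosen with earlier results of these data known. Named genes were the 9, the 3 highest, 3 lowest and 3 most variable of the other strand exchange genes, and the 3 genes most like each of the 9. Other genes named were chosen after their values were seen. Rad54b, with more than 1 row in the table, was left out of the list.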

Additional observations from a re-analysis of the deposited data

Results flagged for a closer look

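Levels in the 4 sample numbers were screened for a value that stands apart from the other 3 (Dixon's test at 95%). Of 53 values screened, which were the 9 genes, the 25 other strand exchange genes, 6 ratios, the medians of the lists and the estimated depth, 6 stood apart, and chance sets apart about 1 in 20. None was one of the 9 genes or their ratios. Rad52 was low in 343wt, at 7.70 FPKM against 10.2 to 10.4 in the others. Sfr1 was high in 343wt, at 149.9 FPKM against 133 to 135. Shfm1 was at 143.9 FPKM in 343wt against 138.9 to 139.1, a small excess that the F-test did not call. Hsf2bp, whose product binds BRCA2, was high in 444wt, at 18.96 FPKM against 11.5 to 12.4. The median round spermatid marker was at 0.23 FPKM in 444wt against 0.0567 to 0.08. The median endothelial marker was at 6.48 FPKM in 456wt against 2.27 to 2.81.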

How the results depend on the processing

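All 9 genes stayed called by the F-test under each of 24 alternatives except when 444wt was left out, where 8 were (range on leaving out a library or a sample number 8 to 9, with 9848 to 11780 genes called in all). With the early meiotic markers as scale, planned for the pair tests and not among the 24, 7 of 9 were called, against 67.5% of all genes. Of the 54 pair tests 40 to 43 passed on leaving out a library, 40 with the median gene as scale and 32 with the early meiotic markers as scale. On that last scale 18 of the 54 differences changed sign, 15 of them in pairs called on either scale. Higher in 343wt than in 444wt were Rpa1 (log2 0.39), Rpa2 (0.31), Psmc3ip (0.15), Mnd1 (0.12), Brca1 (0.11) and Palb2 (0.044). As 444wt minus 456wt, Rpa2 was at -0.44, Psmc3ip at -0.40, Brca1 at -0.26, Mnd1 at -0.24 and Rad51c at -0.16. As 343wt minus 456wt, Dmc1 was at 0.18 and Brca2 at 0.0285, and as 186wt minus 343wt, Psmc3ip was at -0.27 and Brca1 at -0.15. The scale itself, on which these markers are level, makes this shift.

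Library numbers were tried as a replicate block. Deviations of libraries with the same number were uncorrelated (median r -0.0073, range -0.0648 to 0.128), so the numbers do not pair the libraries. With the block the F-test called 9 of 9 genes and 43 of 54 pair tests passed, Brca1 in 186wt against 343wt no longer passed (adjusted p = 0.0514), Palb2 in 444wt against 456wt did (0.0247), and the ratio of Brca2 to Palb2 passed (exact permutation, adjusted p = 0.0443).

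Leaving out a library number or a sample number, the adjusted exact permutation p ran from 0.00714 to 0.0571 for the ratios of Dmc1 to Rad51c, Dmc1 to Rpa1 and Brca1 to Brca2. The highest came without the libraries numbered 2, where all 3 calls were lost, and Brca1 to Brca2 was at 0.05, also no call, without 343wt or 456wt. For Dmc1 to Rad51c the loss came at an unadjusted exact permutation p of 0.00952, the smallest that the 105 arrangements left can give. The ranges were 0.377 to 0.867 for Psmc3ip to Mnd1, 0.171 to 0.505 for Brca2 to Palb2 and 0.229 to 0.882 for Rpa1 to Rpa2. Levels moved by less than their SD under all 54 alternatives, by at most 16.2% (Dmc1 without 444wt, 16.9 FPKM).

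Low genes such as Mnd1 rest on few fragments per library, an estimated 52.7 to 109 for Mnd1. No result here compares conditions, and the sample numbers cannot be told apart from the cell preparations they came from.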
